A study of Oryza sativa with 8 samples.

Results

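Ethylene is made in plants in a pair of committed steps. ACC synthase turns S-adenosylmethionine into ACC (1-aminocyclopropane-1-carboxylate) and ACC oxidase turns ACC into ethylene. Here, 10 rice genes for these enzymes were followed in roots, out of 37869 genes in the deposited table. They were chosen by locus identifier, and the table annotates 6 of them as ACC oxidases and 4 as ACC synthases. The compared roots came from ROX plants, which overexpress the transcription factor gene OsERF48 from the root-specific RCc3 promoter, and from nontransgenic (NT) plants of the same cultivar, Ilmi. All plants were 2 weeks old and were grown in soil under normal conditions. The 4 ROX samples represent 2 homozygous transgenic lines, 2 and 6, each with a single copy of the transgene, and the other 4 samples are NT. RNA was taken from roots in bulk, so fewer cells of a type and less RNA per cell cannot be told apart in any of the values.

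ACC synthase is usually the rate-limiting enzyme, and its protein is short-lived because ETO1-type proteins, as known from Arabidopsis, mark part of the family for breakdown. ACC oxidase is an iron-dependent enzyme that can become limiting when ACC is plentiful. The methylthioadenosine left over by ACC synthase is returned to methionine by the methionine salvage cycle, so that ethylene can be made without draining the methionine pool. In rice roots, ethylene is known for its part in flooding responses, in aerenchyma formation and in the control of root elongation.

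The values are FPKM (fragments assigned to a gene scaled by transcript length and by the number of mapped fragments), so that levels can be compared between genes per length. Column names told OsERF48 from NT libraries but not the line, and they came in 2 styles, each with 2 ROX and 2 NT libraries, called Root and Set libraries here after the word in the names. The Set names give neither the tissue nor the promoter. These libraries were taken as ROX and NT roots because the sample descriptions list no other groups, and no column could be matched to a single sample. Expression correlated between libraries of the same style with Pearson coefficients of 0.962 to 0.997 and between styles with 0.828 to 0.888, so each comparison was also made within each style. The study describes technical replicates, and what the 2 styles stand for is not given in the sources used here. Each transgenic line also has 2 ROX samples, and whether a style stands for a line is not known. Differences between styles therefore cannot be told apart from differences between lines. Within a pair, the variance was 1.23 to 1.85 times the counting noise in Root and 7.45 to 9.59 times in Set, so that p-values within Root may measure technical spread only. Estimated depth was 37400000 to 49700000 fragments per library. OsERF48 itself (Os08g0408500) was at 464 and 470 FPKM in Root ROX, against 86.6 and 86.2 FPKM in Root NT, and at 816 and 612 FPKM in Set ROX, against 65.9 and 59.3 FPKM in Set NT. The RCc3 gene, a root marker, was present in every library but was at 152 and 161 FPKM in Root ROX, against 321 and 307 FPKM in Root NT, while Set ROX (1581 and 1540 FPKM) and Set NT (1236 and 1608 FPKM) overlapped. The summed level of 8 green tissue markers (Rubisco small subunits and chlorophyll-binding proteins) was 14.8 to 15.0 FPKM in Root ROX, against 30.9 to 32.9 FPKM in Root NT, and 8.34 to 9.74 FPKM in Set ROX, against 13.4 to 15.7 FPKM in Set NT. Of these 8 markers, 8 had both Root ROX libraries below both Root NT libraries and 6 had the same order in Set. In Set, Os01g0720500 had the reverse order, at 3.58 and 3.06 FPKM in ROX, against 1.70 and 2.44 FPKM in NT. Of the 8, 2 were at 0 in at least 1 library, and their part in the results was not tested.

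Over all libraries, ROX roots had more transcript of 2 ACC oxidase genes, Os02g0771600 and Os11g0186900, and no member was called lower. A gene was called when limma gave an unadjusted p under 0.05 and a change of at least 2-fold on the log2(FPKM + 1) scale, the limits of the study's methods. The 2 of 10 members called higher stand beside 0.750% of the 26136 genes tested, and the 0 called lower stand beside 0.157%. At an unadjusted p under 0.05 without the fold limit, 3 members were higher, where 2.53% of all genes were, and 1 was lower, where 2.95% were. At an adjusted p under 0.05, 0 of the 10 members passed in limma, and 0.172% of all genes tested did. Every ROX library lay above every NT library for 1 member (Os11g0186900) and below for 1 (Os06g0130400), where 5.38% of all genes were separated in either direction. The median log2 fold change was 0.25 over the members and -0.05 over all genes tested. With the name style as a covariate in limma, Os02g0771600 (adjusted p = 0.000634) and Os11g0186900 (adjusted p = 0.0300) passed an adjusted p under 0.05 and the 2-fold limit, as did 0.807% of all genes.

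Os02g0771600 was called within the Root and also within the Set libraries. Within Root, 3 members were called higher in limma (Os02g0771600, Os09g0451400 and Os03g0727600), where 4.23% of 25090 genes were called higher, and 0 were called lower, where 0.976% were. At an unadjusted p under 0.05 alone, 7 members were higher in Root, where 22.9% of all genes were, and 1 was lower, where 36.2% were. An adjusted p under 0.05 was reached by 7 of the 10 members in Root, but also by 52.8% of all genes tested there. Within Set, 2 members were called higher (Os02g0771600 and Os11g0186900), against 0.922% of 26131 genes, and 1 was called lower (Os05g0149300), against 0.597%. One member, Os02g0771600, had an adjusted p under 0.05 in Set, where 1.24% of all genes did. The limma test of the interaction, at an adjusted p under 0.05, found a ROX effect that differed between the styles for 5 of 10 members and 21.5% of all genes. Those 5 members were the oxidase genes Os09g0451400, Os09g0451000 and Os05g0149300 and the synthase genes Os03g0727600 and Os04g0578000. In every setting, the interaction test counts the 2 libraries of a pair as independent. Averaging each pair would leave no spread to test the interaction with.

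**Figure D1:**
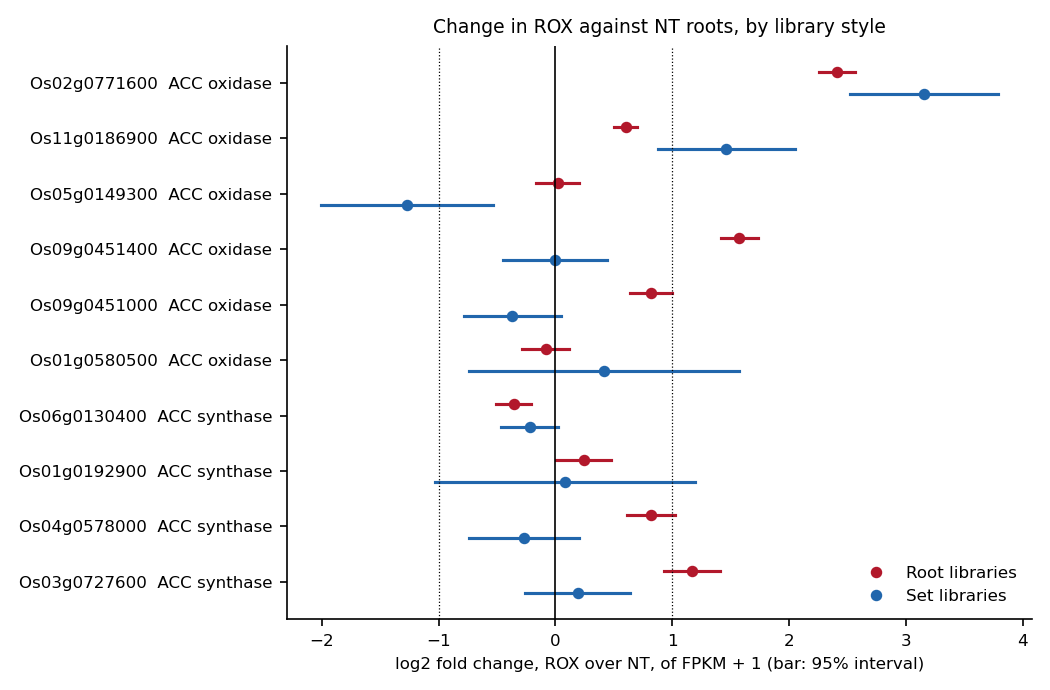
Log2 fold change of ROX over NT on the log2(FPKM + 1) scale for the 10 members, within the Root and within the Set libraries (points), with 95% intervals from limma (bars); dotted lines mark a 2-fold change. Os02g0771600 lies beyond the 2-fold line in both styles (2.41 in Root and 3.16 in Set), whereas Os09g0451400 lies at 1.57 in Root and at -0.01 in Set.

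Os02g0771600 was the ACC oxidase gene with the widest difference between ROX and NT roots. The deposited table places it on chromosome 2 (32558636 to 32562547), and the submitters' processing notes name the build IRGSP-1.0. Its promoter was the study's negative control for ChIP-qPCR (chromatin immunoprecipitation followed by PCR of chosen DNA stretches). This promoter holds elements for AP2/ERF factors, the family of OsERF48, and the gene is absent from the study's network. In roots with myc-tagged OsERF48, the study found no enrichment of these promoter fragments. The designed primers are shown because they are the only sequences of a member in the sources used here. They are listed as 3 pairs, P1 to P3, from 5′ to 3′, and both primers of P1 and of P2 carry the same suffix, so that their orientation is not given.
P1, primer 1: caaaccctatccggtcgcct
P1, primer 2: agccatcggaggagagaagag
P2, primer 1: aagagcgagccatcacagac
P2, primer 2: gccaacctcctctaaaggct
P3, primer 1: gcctataaattgggcgctcg
P3, primer 2: gttgatcaccgggaaggagg

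Os02g0771600 was at 29.2 and 32.0 FPKM in Root ROX, against 4.78 and 5.09 FPKM in Root NT. It was at 248 and 206 FPKM in Set ROX, against 19.0 and 31.5 FPKM in Set NT. Within each style, both ROX libraries were far above both NT libraries. Within each genotype, both Set libraries were above both Root libraries, and Set NT 2 was within the range of the Root ROX libraries. Mean FPKM in ROX was 6.20 times the NT mean in Root and 8.99 times in Set. The log2 fold change was 2.41 in Root (standard error 0.07, adjusted p = 4.62e-07 in limma) and 3.16 in Set (standard error 0.25, adjusted p = 0.0119). Over all libraries it was 2.78 (standard error 0.92, adjusted p = 0.697 in limma), and the two-sided exact permutation test gave p = 0.0571, where 0.0286 is the smallest that 4 libraries against 4 allow. The call over all libraries was lost when the 2 libraries of each genotype and style were averaged first, a setting chosen after seeing the data. The rise in Root and the rise in Set did not pass the test of their difference (Root minus Set -0.74, 95% interval -1.43 to -0.06, adjusted p = 0.114 in limma), and without Set NT 2 that difference was -1.10 (adjusted p = 0.00602).

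**Figure D2:**
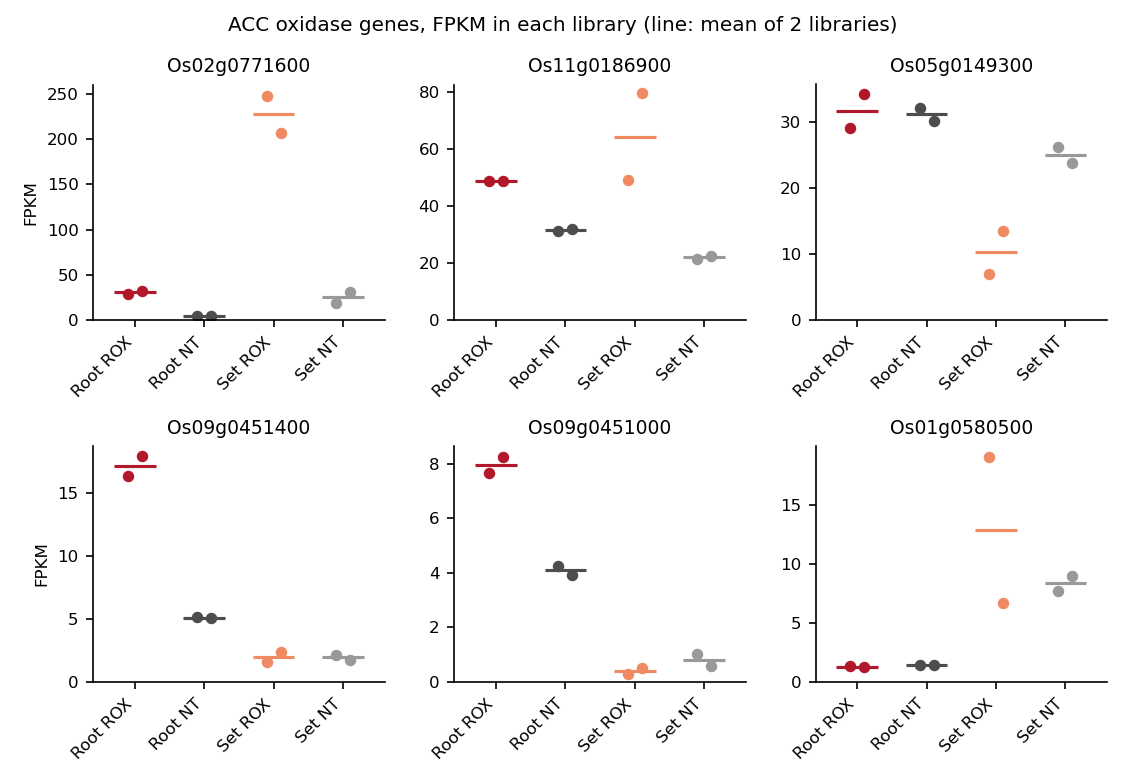
FPKM of the 6 ACC oxidase genes in each library (points) with the mean of the 2 libraries (lines), by library style and genotype; each vertical axis starts at 0 and has its own scale. Os02g0771600 reached 248 and 206 FPKM in Set ROX, against 19.0 and 31.5 FPKM in Set NT, while Os05g0149300 was lower in Set ROX (6.94 and 13.5 FPKM) than in Set NT (26.2 and 23.8 FPKM).

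The higher level of Os02g0771600 was carried by the shorter of its 2 annotated transcripts. Os02t0771600-02, of 1316 bases, was at 28.4 and 31.1 FPKM in Root ROX, against 4.07 and 4.16 FPKM in Root NT, and at 247 and 205 FPKM in Set ROX, against 18.4 and 30.6 FPKM in Set NT. Os02t0771600-01, of 2999 bases, was between 0.623 and 1.18 FPKM in all libraries. Its mean in ROX was 1.04 times the NT mean in Root and 1.45 times in Set, whereas that of the shorter transcript was 7.22 times in Root and 9.23 times in Set. The transcripts end at the same base, and the short one starts 1683 bases further along, which is also their difference in length, so that the long form adds one stretch at the low-coordinate end. The long form made up 2.92% and 2.69% of the gene's FPKM in Root ROX, against 14.8% and 18.3% in Root NT, and 0.477% and 0.539% in Set ROX, against 3.28% and 3.03% in Set NT. How the quantification shared out fragments from the bases common to both forms is not given in the sources used here.

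**Figure D3:**
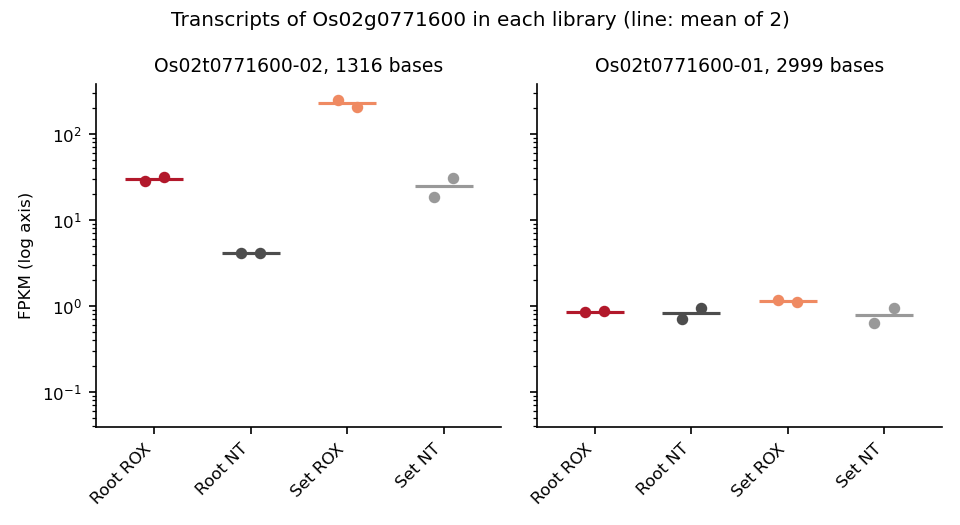
FPKM of the 2 annotated transcripts of Os02g0771600 in each library (points) with the mean of 2 libraries (lines), on a log axis. The short form of 1316 bases was at 28.4 and 31.1 FPKM in Root ROX, against 4.07 and 4.16 FPKM in Root NT, while the long form of 2999 bases stayed between 0.623 and 1.18 FPKM.

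Os11g0186900, on chromosome 11 from 4415933 to 4418435, was the oxidase gene with the most even levels. It was at 48.7 and 48.6 FPKM in Root ROX, against 31.3 and 32.1 FPKM in Root NT. It was at 49.0 and 79.7 FPKM in Set ROX, against 21.6 and 22.5 FPKM in Set NT. Each of the 4 ROX libraries exceeded each NT library (p = 0.0286 in a two-sided exact permutation test, which can go no lower here), although the 2 Set ROX libraries stood well apart from each other. This test counts all 8 libraries as independent, and with technical replicates among them, 2 samples against 2 could not go below 0.333. The log2 fold change was 0.60 in Root (standard error 0.04, adjusted p = 3.17e-05 in limma), short of the 2-fold limit, and 1.46 in Set (standard error 0.23, adjusted p = 0.0716). Over all libraries it was 1.03 (standard error 0.21, adjusted p = 0.260 in limma). This value is close to the 2-fold limit, and it fell below it without Set ROX 2 (0.86), without Set NT 1 (0.94) or without Set NT 2 (0.96). Os11g0186900 shares 1304 bases with Os11g0187001, annotated as a hypothetical gene. Os11g0187001 was listed at 38.2 and 42.0 FPKM in Root ROX, against 25.8 and 25.0 FPKM in Root NT. In Set, where Os11g0186900 was called, Os11g0187001 was at 39.5 and 61.6 FPKM in ROX, against 16.1 and 18.6 FPKM in NT. The libraries were made strand-specific, but whether the counting used strand is not given in the sources used here, so fragments of the pair may have been shared out between them.

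Os05g0149300, on chromosome 5 from 2819814 to 2821347, had a ROX effect that differed between the 2 styles. It was at 29.0 and 34.3 FPKM in Root ROX, against 32.1 and 30.1 FPKM in Root NT, so that these libraries overlapped. It fell to 6.94 and 13.5 FPKM in Set ROX, against 26.2 and 23.8 FPKM in Set NT. The log2 fold change was 0.02 in Root (95% interval -0.17 to 0.21) and -1.27 in Set (standard error 0.29, adjusted p = 0.142 in limma). The difference between the effects was 1.29 (adjusted p = 0.0380 in limma), and it passed in 7 of 15 other settings, with adjusted p-values of 0.000721 to 0.127. Without Set ROX 1, the fall in Set was 0.84 on the log2 scale (log2 fold change -0.84) and no longer reached 2-fold. A further gene annotated as an ACC oxidase, Os05g0149400, lies 3976 bases away and is not a member. It was at 6.03 and 8.40 FPKM in Set ROX, against 21.0 and 12.7 FPKM in Set NT, and at 29.4 and 24.5 FPKM in Root ROX, against 22.2 and 25.0 FPKM in Root NT. Its log2 fold change was -1.10 in Set (adjusted p = 0.160 in limma) and 0.18 in Root (adjusted p = 0.142). Os05g0149400 shares 806 bases with Os05g0149450, annotated as a non-protein coding transcript, so that its own level is uncertain. Os05g0149450 was listed at 16.5 and 24.8 FPKM in Set ROX, against 53.9 and 34.8 FPKM in Set NT.

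Os09g0451400 and Os09g0451000 lie 37851 bases apart on chromosome 9 and shared a pattern. The table names Os09g0451400 (16925457 to 16927046) as ACC oxidase 1 and Os09g0451000 (16886142 to 16887605) as similar to it. Os09g0451400 rose to 16.4 and 17.9 FPKM in Root ROX, against 5.11 and 5.05 FPKM in Root NT, 3.37 times the NT mean. In Set it was at 1.53 and 2.33 FPKM in ROX, against 2.15 and 1.70 FPKM in NT, and these libraries overlapped. Its log2 fold change was 1.57 in Root (standard error 0.07, adjusted p = 3.34e-06 in limma) and -0.01 in Set (95% interval -0.45 to 0.44), and the effects differed by 1.58 (adjusted p = 0.00238). Os09g0451000 was at 7.68 and 8.26 FPKM in Root ROX, against 4.25 and 3.92 FPKM in Root NT. In Set it was at 0.298 and 0.490 FPKM in ROX, against 1.03 and 0.584 FPKM in NT, which rests on an estimated 17 and 27 fragments in ROX and 58 and 31 in NT. Its log2 fold change was 0.82 in Root (standard error 0.08, adjusted p = 0.000144 in limma), short of 2-fold, and -0.37 in Set (95% interval -0.78 to 0.04). The effects on this gene differed by 1.19 (adjusted p = 0.00635 in limma). For both genes of the pair the difference between styles passed in every other setting in which the gene was tested, 15 settings for Os09g0451400 and 14 for Os09g0451000. Each of these settings counts the 2 libraries of a pair as independent, so that they do not address technical replicates. Os09g0451000 shares 1114 bases with the hypothetical gene Os09g0451133, listed at 18.9 and 22.6 FPKM in Root ROX, against 10.1 and 9.89 FPKM in Root NT, so that its own level is uncertain. Os09g0451400 shares 1275 bases with the hypothetical gene Os09g0451266, whose mean was 0.0130 FPKM.

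Os01g0580500, on chromosome 1 from 22489496 to 22490967, was close between genotypes in Root and overlapped in Set. It was at 1.32 and 1.24 FPKM in Root ROX, against 1.40 and 1.43 FPKM in Root NT, slightly below in both ROX libraries. In Set ROX its 2 libraries were at 19.1 and 6.64 FPKM, on either side of Set NT at 7.65 and 8.98 FPKM. The log2 fold change was -0.08 in Root (95% interval -0.28 to 0.12) and 0.41 in Set (95% interval -0.74 to 1.57). Without Set ROX 2 the Set value was 1.11, and without Set ROX 1 it was -0.28, so that its sign rested on 1 library. This gene differed more by style than by genotype, with an NT mean 5.89 times as high in Set as in Root.

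Summed over the 6 oxidase members, ROX roots held more of their transcript in both styles, and this sum was not tested. It leaves out the further oxidase genes Os05g0149400 and Os06g0573900. Os05g0149400 was lower in Set ROX (6.03 and 8.40 FPKM) than in Set NT (21.0 and 12.7 FPKM). Its Root libraries overlapped (29.4 and 24.5 FPKM in ROX, against 22.2 and 25.0 FPKM in NT). The sum was 132 and 142 FPKM in Root ROX, against 78.9 and 77.7 FPKM in Root NT, and 325 and 309 FPKM in Set ROX, against 77.5 and 89.1 FPKM in Set NT. The ROX mean was 1.75 times the NT mean in Root and 3.80 times in Set. Os02g0771600 made 43.5% of the difference in Root and 86.4% in Set. Its share of the sum was 22.1% and 22.5% in Root ROX, against 6.06% and 6.55% in Root NT, and 76.3% and 66.8% in Set ROX, against 24.5% and 35.4% in Set NT. Without it, the sum of the other 5 genes was 103 and 110 FPKM in Root ROX, against 74.1 and 72.6 FPKM in Root NT, and 76.8 and 103 FPKM in Set ROX, against 58.6 and 57.6 FPKM in Set NT. The NT sums of the 2 styles overlapped, and Os09g0451400 and Os01g0580500 changed places within them (6.48% and 6.50% against 1.77% and 1.84% in Root NT, and 2.78% and 1.90% against 9.86% and 10.1% in Set NT).

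**Figure D4:**
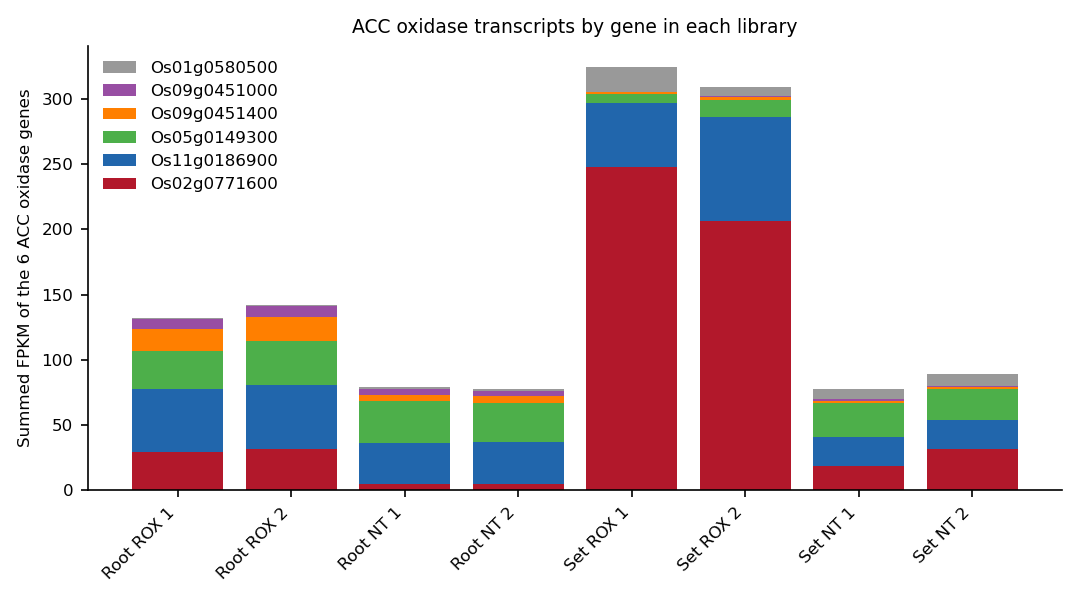
Summed FPKM of the 6 ACC oxidase genes in each library, stacked by gene. The bars reach 132 and 142 FPKM in Root ROX, against 78.9 and 77.7 FPKM in Root NT, and 325 and 309 FPKM in Set ROX, against 77.5 and 89.1 FPKM in Set NT, where Os02g0771600 fills 76.3% and 66.8% of the Set ROX bars.

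The 4 ACC synthase genes were expressed at lower levels than the leading oxidases, and their sum was close between genotypes. It was 14.3 and 15.1 FPKM in Root ROX, against 14.3 and 13.9 FPKM in Root NT, and 19.9 and 31.9 FPKM in Set ROX, against 22.8 and 30.1 FPKM in Set NT. The ROX mean was 1.04 times the NT mean in Root and 0.979 times in Set, with no test of the sum. The sum leaves out Os09g0453800, a further gene annotated as an ACC synthase family protein. It is described below, exceeded this sum in every library and was higher in ROX within each style. Over all libraries, 0 of the 4 were called in limma, with 1 higher and 1 lower at an unadjusted p under 0.05. Within Root, 1 was called higher, and at an unadjusted p under 0.05 alone 3 were higher and 1 was lower, a criterion that 22.9% and 36.2% of all genes met in these directions. Within Set, 0 of the 4 were called and 0 had an unadjusted p under 0.05, where 7.18% of all genes were higher and 8.66% lower.

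**Figure D5:**
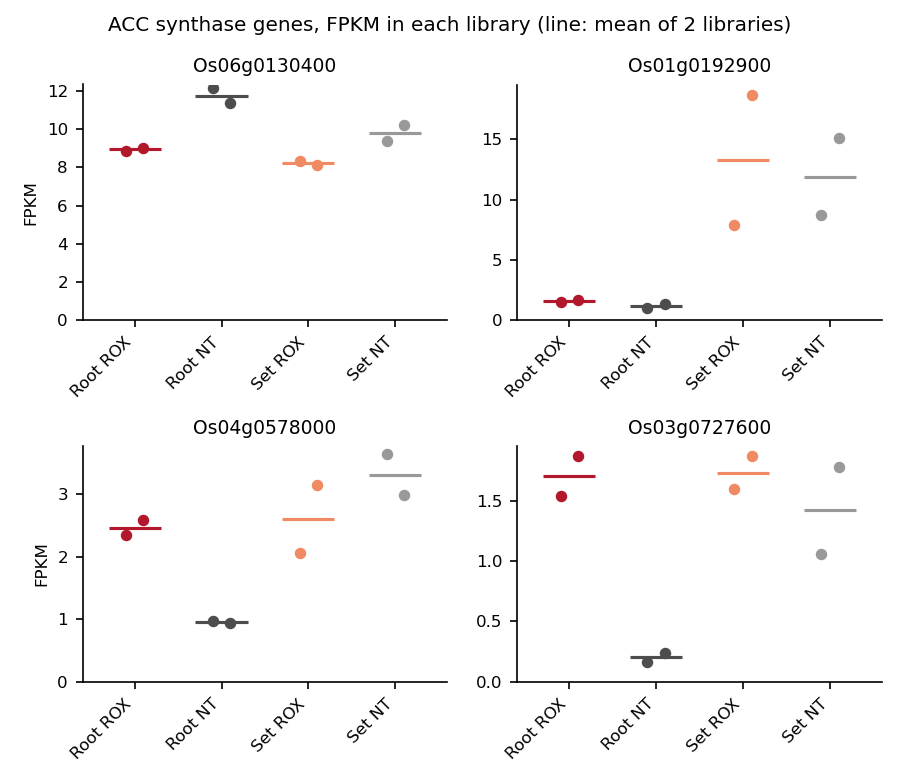
FPKM of the 4 ACC synthase genes in each library (points) with the mean of the 2 libraries (lines), by library style and genotype; each vertical axis starts at 0 and has its own scale. Os03g0727600 was at 1.54 and 1.87 FPKM in Root ROX, against 0.163 and 0.237 FPKM in Root NT, and at 1.60 and 1.87 FPKM in Set ROX, against 1.06 and 1.78 FPKM in Set NT.

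Os03g0727600, named ACC synthase 1 in the table, lies on chromosome 3 from 29660662 to 29662922. It rose to 1.54 and 1.87 FPKM in Root ROX, against 0.163 and 0.237 FPKM in Root NT, from an estimated 104 and 147 fragments in ROX and 11 and 18 in NT. It was at 1.60 and 1.87 FPKM in Set ROX, against 1.06 and 1.78 FPKM in Set NT, so that Root NT was low while the other groups lay near each other. The ROX mean was 8.51 times the NT mean in Root. On the log2(FPKM + 1) scale, which understates the change of so low a gene, the change was 1.17 in Root (standard error 0.10, adjusted p = 0.000104 in limma) and 0.19 in Set (95% interval -0.26 to 0.64). With a pseudocount of 0.1 the Root value was 2.59. The effects differed by 0.98 (adjusted p = 0.0186 in limma), and the difference passed in 11 of 14 other settings, with adjusted p-values of 0.00681 to 0.0765.

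Os04g0578000, on chromosome 4 from 29131883 to 29134682, was higher in Root ROX, although under the 2-fold limit. It was at 2.34 and 2.58 FPKM in Root ROX, against 0.975 and 0.942 FPKM in Root NT. It was at 2.06 and 3.15 FPKM in Set ROX, against 3.63 and 2.98 FPKM in Set NT, with overlapping libraries. The ROX mean was 2.56 times the NT mean in Root, but the log2 fold change of 0.82 (standard error 0.09, adjusted p = 0.000282 in limma) was under the 2-fold limit on the log2(FPKM + 1) scale and reached 1.27 with a pseudocount of 0.1. In Set it was -0.27 (95% interval -0.74 to 0.20). The effects differed by 1.09 (adjusted p = 0.0131 in limma), in 11 of 14 other settings as well, with adjusted p-values of 0.00305 to 0.0585.

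Os06g0130400, on chromosome 6 from 1629778 to 1633507, was the member with the steadiest level and was lower in ROX roots by a small amount. It was at 8.87 and 9.04 FPKM in Root ROX, against 12.1 and 11.4 FPKM in Root NT, and at 8.36 and 8.15 FPKM in Set ROX, against 9.39 and 10.2 FPKM in Set NT. Each of the 4 ROX libraries lay under each NT library (p = 0.0286 in a two-sided exact permutation test, which again takes technical replicates as independent). With the 2 libraries of each genotype and style averaged, the unadjusted p in limma was 0.325. The log2 fold change was -0.29 over all libraries (standard error 0.11, adjusted p = 0.805 in limma), -0.36 in Root (adjusted p = 0.00268) and -0.22 in Set (adjusted p = 0.355). The effects did not pass the test of their difference (-0.14, 95% interval -0.37 to 0.10).

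Os01g0192900, on chromosome 1 from 5002454 to 5004321, varied more by style than by genotype. It was at 1.52 and 1.66 FPKM in Root ROX, against 1.05 and 1.34 FPKM in Root NT. In Set it was at 7.92 and 18.7 FPKM in ROX, against 8.70 and 15.1 FPKM in NT, and the spread within each pair was wider than the gap between genotypes. On the log2 scale the change was 0.24 in Root (standard error 0.10, adjusted p = 0.0786 in limma) and 0.08 in Set (95% interval -1.03 to 1.20). The NT mean was 9.99 times as high in Set as in Root, the widest such ratio among the 10 members.

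The order of the members by level differed between styles and genotypes. In Root ROX, Os11g0186900 (48.7 and 48.6 FPKM) came first, followed by Os02g0771600 (29.2 and 32.0 FPKM) and Os05g0149300 (29.0 and 34.3 FPKM), which overlapped. In Root NT, Os11g0186900 (31.3 and 32.1 FPKM) and Os05g0149300 (32.1 and 30.1 FPKM) shared the top and overlapped, and Os02g0771600 (4.78 and 5.09 FPKM) overlapped with Os09g0451400 (5.11 and 5.05 FPKM). In Set ROX, Os02g0771600 was first by a wide margin, with Os11g0186900 second. In Set NT, Os02g0771600 (19.0 and 31.5 FPKM), Os05g0149300 (26.2 and 23.8 FPKM) and Os11g0186900 (21.6 and 22.5 FPKM) overlapped at the top. Os09g0451000 came last in all 4 Set libraries but was sixth of the members in all 4 Root libraries. Among the ACC synthases, Os06g0130400 led in all 4 Root libraries with 59.7% to 84.7% of their sum. In Set, Os01g0192900 held 38.2% to 58.7% and Os06g0130400 25.6% to 41.9%, and each of them led in 2 of the 4 libraries.

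The levels of the members across the 8 libraries, on the log2(FPKM + 1) scale, fell into patterns set by style as well as genotype, and these coefficients are a description over libraries that share a style. Os09g0451400 and Os09g0451000 had a Pearson coefficient of 0.96, and Os09g0451000 and Os01g0580500 one of -0.94. Os02g0771600 had coefficients of 0.80 with Os03g0727600 and -0.90 with Os06g0130400. Of all genes tested, the 3 most like Os02g0771600, the most abundant member by its mean of 71.9 FPKM, were Os09g0453900 (MORN motif protein, 0.994), Os02g0175100 (annotated as similar to RISBZ4, 0.992) and Os01g0101900 (0.991). The coefficient does not measure the size of a change. Os09g0453900 was at 17.4 and 18.2 FPKM in Root ROX, against 13.4 and 13.0 FPKM in Root NT. In Set it was at 24.2 and 22.7 FPKM in ROX, against 16.2 and 18.0 FPKM in NT. Os02g0175100 was at 56.6 and 58.2 FPKM in Root ROX, against 47.3 and 48.7 FPKM in Root NT. In Set it was at 74.6 and 72.6 FPKM in ROX, against 55.9 and 61.3 FPKM in NT. Os01g0101900 was at 1.70 and 3.40 FPKM in Root ROX, against 0 and 0.130 FPKM in Root NT, and at 17.5 and 14.8 FPKM in Set ROX, against 2.17 and 2.92 FPKM in Set NT.

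The table annotates 15 genes in all as ACC synthases or oxidases, and the 5 beyond the members were 2 oxidases and 3 synthases. The most abundant of them was Os09g0453800, which the table lists as an ACC synthase family protein and, for its other transcript, as similar to an aspartate aminotransferase. It was at 36.2 and 33.3 FPKM in Root ROX, against 22.9 and 22.1 FPKM in Root NT, and at 218 and 254 FPKM in Set ROX, against 124 and 169 FPKM in Set NT. Its libraries did not overlap within either style, with a log2 fold change of 0.60 in Root (adjusted p = 0.000134 in limma) and 0.70 in Set (adjusted p = 0.169). The oxidase gene Os06g0573900 was at 0.727 and 0.754 FPKM in Root ROX, against 1.39 and 1.91 FPKM in Root NT (log2 fold change -0.60, adjusted p = 0.00409 in limma), and its Set libraries overlapped. The synthase genes Os05g0196600 and Os05g0319200 were at or near 0 in every library, with a highest value of 0.0399 FPKM.

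Of the genes around the pathway, 8 of 16 listed by function carried an annotation that names it, and none of the 8 was called in either direction over all libraries or within a style by limma. Over all libraries, 1 of the 8 was higher and 0 were lower at an unadjusted p under 0.05. Within Root, 4 were higher and 1 was lower by the same criterion, which 22.9% and 36.2% of all genes met in these directions. Within Set, 1 of the 7 tested was higher and 0 were lower, where 7.18% and 8.66% of all genes were. Their median log2 fold change was 0.17 over all libraries, 0.20 in Root and 0.11 in Set, where the medians over all genes were -0.05, -0.08 and -0.02. The absence of calls depends on which identifiers were kept. Of the 8 left out for want of an annotation that names the function, 1 was called in Root, Os10g0419400, which the table lists only as similar to SIPL, a name it also gives to 1 transcript of Os03g0161800. Os10g0419400, singled out here after its values were seen, was at 68.9 and 68.3 FPKM in Root ROX, against 19.7 and 20.8 FPKM in Root NT (log2 fold change 1.71, adjusted p = 4.03e-07 in limma). It was at 66.8 and 34.6 FPKM in Set ROX, against 55.4 and 34.2 FPKM in Set NT, with overlap.

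S-adenosylmethionine synthetase makes the substrate of ACC synthase. Os05g0135700 was at 221 and 201 FPKM in Root ROX, against 148 and 153 FPKM in Root NT, and at 287 and 297 FPKM in Set ROX, against 313 and 327 FPKM in Set NT. The change on the log2 scale was 0.48 in Root (adjusted p = 0.000269 in limma) and -0.13 in Set (adjusted p = 0.560), and the effects differed by 0.61 (adjusted p = 0.00571). Os01g0323600 had a log2 fold change of 0.67 in Root (adjusted p = 0.00164 in limma) and 0.23 in Set (adjusted p = 0.512). Os05g0135700 shares 1196 bases with Os05g0135750, at 1146 and 1191 FPKM in Root ROX, against 803 and 780 FPKM in Root NT. Os01g0323600 shares 1630 bases with Os01g0323775, at 317 and 336 FPKM in Root ROX, against 201 and 196 FPKM in Root NT. Both overlapping genes are annotated as hypothetical proteins. Fragments may have been shared out within each pair, so that the levels of these synthetase genes are uncertain. Os01g0293000 was between 0.254 and 1.13 FPKM in all libraries and was not tested in Set.

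In methionine salvage, acireductone dioxygenase makes the keto acid that is turned back into methionine. Its gene Os03g0161800 was at 65.7 and 65.5 FPKM in Root ROX, against 67.6 and 67.5 FPKM in Root NT. It was at 405 and 394 FPKM in Set ROX, against 211 and 278 FPKM in Set NT, without overlap. Its log2 fold change was -0.04 in Root (adjusted p = 0.380 in limma) and 0.72 in Set (adjusted p = 0.127), with an effect that differed by -0.76 (adjusted p = 0.0176). The methylthioribose kinase gene Os04g0669800, for an enzyme that salvages methylthioribose, was at 27.7 and 26.6 FPKM in Root ROX, against 31.4 and 31.3 FPKM in Root NT, and at 139 and 170 FPKM in Set ROX, against 100.5 and 135 FPKM in Set NT.

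ETO1-type proteins, known from Arabidopsis, bind certain ACC synthases and lead to their breakdown. Os03g0294700, annotated as similar to ethylene-overproduction protein 1, was at 4.84 and 4.98 FPKM in Root ROX, against 2.75 and 2.78 FPKM in Root NT, and at 4.76 and 4.55 FPKM in Set ROX, against 3.93 and 4.53 FPKM in Set NT. On the log2 scale the change was 0.65 in Root (adjusted p = 0.000397 in limma) and 0.11 in Set (adjusted p = 0.690), and the effects differed by 0.54 (adjusted p = 0.0208). The ETO1-like genes Os11g0585900 and Os07g0178100 were more abundant. Os11g0585900 was at 46.2 and 43.3 FPKM in Root ROX, against 35.9 and 34.1 FPKM in Root NT, with a log2 fold change of 0.35 (adjusted p = 0.00124 in limma), and of -0.01 in Set (adjusted p = 0.967). Os07g0178100 was between 23.6 and 28.7 FPKM in all 8 libraries, with log2 fold changes of 0.05 in Root and 0.08 in Set.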

How the data were processed

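Total RNA of 2-week-old roots was made into strand-specific libraries and sequenced by a service provider. FPKM tables for genes and for transcripts, with RAP-DB identifiers, were deposited by the authors. The aligner and quantification tool are not given in the sources used here, and the submitters' processing notes name the build IRGSP-1.0. Starts in the table count from 0 and were raised by 1. Of the columns in each table, 8 carry a name that tells OsERF48 from NT libraries and 4 match no sample and were not used here.

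Where the mean FPKM of a gene was 0.5 or more, log2(FPKM + 1) was fitted with limma 3.58.1 in R 4.3.3 (variance trend, Benjamini-Hochberg adjustment over all genes tested), over all libraries, within each name style, and with an interaction of style and genotype. The fits were run on simulated data to see whether set changes were found. The simulated libraries were independent with a common spread, without technical pairs or a general difference between styles. They do not test the p-values for the design here. Depth was estimated in Python 3.11.15 from steps of whole fragments in the deposited FPKM of genes with 1 transcript, of which 92.0% to 93.6% of low values were within 0.1 of a whole number. Members, lists and tests were chosen with earlier results of these data known. All members are named, with the RCc3 gene, OsERF48, the pathway list and the 3 genes most correlated with the most abundant member. Genes overlapping a member, an S-adenosylmethionine synthetase gene or Os05g0149400 are named as well. Of the pathway list, 8 identifiers that the sources do not annotate with the listed function were left out of its counts.

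Alternatives were a pseudocount of 0.1, no filter, a minimum mean FPKM of 5, quantile normalization, median ratio scaling, the name style as a covariate, a replicate block, transcript sums and the removal of each library in turn. Averaging the 2 libraries of a genotype and style was added after seeing the data.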

Additional observations from a re-analysis of the deposited data

Results flagged for a closer look

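Among 80 groups of 4 libraries screened for a value far from the rest, 3 held one. The limit used has a rate of about 1 in 20 for values of a single distribution. Each group here joins the 2 styles, so that this rate does not apply. For Os11g0186900, Set ROX 2 (79.7 FPKM) was far above the other ROX libraries, with a gap of 0.985 of the whole range on the log2 scale. For the green tissue marker Os12g0291400, Root ROX 1 stood apart with a gap of 0.857 of the range. For Os10g0419400, a pathway identifier left out of the counts, Set ROX 2 (34.6 FPKM) was below the other ROX libraries with a gap of 0.954 of the range.

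In the limma test of the interaction, 16 of the genes listed, 5 of them members, had a ROX effect in Root that differed from the one in Set (adjusted p under 0.05), beside 21.5% of all genes tested. Given as Root effect minus Set effect on the log2 scale, it was 1.58 for Os09g0451400, 1.19 for Os09g0451000, 1.29 for Os05g0149300, 0.98 for Os03g0727600 and 1.09 for Os04g0578000. Outside the members it was 1.28 for the oxidase gene Os05g0149400, 0.61 for Os05g0135700, 0.54 for Os03g0294700, 0.36 for Os11g0585900 and -0.76 for Os03g0161800. Of the identifiers left out of the pathway counts, Os10g0419400 had 1.57 and Os11g0216900 -1.22. It was also -1.06 for OsERF48, -1.14 for the RCc3 gene, -0.60 for Os12g0274700 and -0.58 for Os03g0592500.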

How the results depend on the processing

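Over all libraries, the count of 2 members called was 1 with closest libraries averaged, a setting added after seeing the data, and 1 to 2 when each library was left out (1 without Set ROX 2, Set NT 1 or Set NT 2). Os02g0771600 lost its call in 1 of 17 settings (averaged libraries, log2 fold change 2.78, limma) and Os11g0186900 in 3. The 5 members whose effect differed between styles became 2 with a minimum mean FPKM of 5, where 7 members were tested, and 2 to 7 when each library was left out. The counts within Root (3) and within Set (3) stayed within 1.5 times in all settings. Over all genes and libraries, 237 were called, against 407 with a pseudocount of 0.1, 138 with a minimum mean FPKM of 5, 425 with the name style as a covariate and 95 with averaged libraries. With a pseudocount of 0.1, 2159 genes in place of 1306 were called in Root and 772 in place of 397 in Set.

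Changes of sign occurred in values that were not called. Over all libraries, leaving out 1 library gave -0.24 to 0.71 for Os09g0451000, -0.47 to 0.58 for Os01g0580500 and -0.42 to 0.70 for Os01g0192900. In Root, Os05g0149300 became -0.018 with quantile normalization and ranged over -0.10 to 0.14 without 1 library. In Set, Os09g0451400 became 0.040 with quantile normalization and 0.015 with median ratio scaling and ranged over -0.20 to 0.19 without 1 library. Without 1 library, Os01g0580500 ranged over -0.28 to 1.11 in Set, Os03g0727600 over -0.028 to 0.41 and Os01g0192900 over -0.49 to 0.65. The Root minus Set difference ranged over -1.19 to 0.20 for Os01g0580500 and -0.41 to 0.73 for Os01g0192900. The cause of these changes was not tested.

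The sources used here do not say whether libraries with the same number in their names share a batch. Deviations of same-numbered libraries correlated with 0.024 in Root and 0.257 in Set, and a replicate block left 2 members called over all libraries, 3 in Root and 3 in Set, with 6 in place of 5 differing between styles. With the block, 274 genes in place of 45 had an adjusted p under 0.05 over all libraries.

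FPKM carries no count model, and genes such as Os03g0727600 rest on as few as 11 estimated fragments. Root pairs lie near counting noise, so the spread within Root is close to technical. The transgenic lines could not be separated.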
